A study of Mus musculus with 16 samples.

Results

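The nephron progenitor transcription factors are nuclear regulators studied in the progenitors of the metanephric mesenchyme. The set comprised Six2, Six4, Eya1, Sall1, Osr1, Pax2, Wt1, Cited1 and Meox1, chosen by name. Of the 9 genes, 8 were measured among the 18193 genes with a probe set of their own, through 14 of the 45101 probe sets on the array. Pax2 was not analysed here, because no probe set carried it as its single symbol in the annotation used.

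Gene expression was profiled in 16 samples from mouse kidneys of stage E11.5, the day on which the ureteric bud starts to branch inside the metanephric mesenchyme. Ureteric buds came from wild-type embryos, were freed by hand after collagenase B digestion and were pooled at 3 to 9 buds a sample (n = 4). Null captures were mesenchyme of embryos lacking Hoxa11 and Hoxd11, cut by laser from 7 µm sections of whole urogenital ridges (n = 5; the number pooled was not given). Wild-type captures were cut by laser from 7 µm sections of kidney rudiments, with 3 to 4 mesenchymes pooled a sample (n = 4). Hand-dissected mesenchymes were single wild-type mesenchymes isolated like the buds (n = 3). The samples within a group were said to be separate embryos. No strain or litter is known for them, the source piece and perhaps the pooling differed together with genotype, and capture and hand dissection differed in pooling as well. All RNA was amplified in 2 rounds before hybridisation.

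In the developing kidney, signals from the bud keep the progenitors of the cap mesenchyme alive and drive some of them to form nephrons, while the progenitors secrete GDNF to make the bud branch. Six2, a homeodomain protein, blocks differentiation of the progenitors. Eya1 is a phosphatase and coactivator that works with Six2 and its relatives, and in mouse the Hox11 proteins act with Eya1 and Pax2 to switch on Six2 and Gdnf. Sall1 is a zinc finger repressor that recruits the NuRD chromatin remodelling complex, Osr1 and Wt1 are zinc finger proteins needed for the mesenchyme to form or survive, Cited1 is a transcriptional coregulator of the cap, and Meox1 is a homeodomain protein best known from the somites.

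The values are array signals scaled by the authors to a common mean, so a gene's signal can be compared between samples but not with that of another gene. Median signals ran from 112.7 to 209.2 per array. Both extremes were null captures, 2 and 1, while wild-type captures ran from 162.7 to 182.3. The 9 ureteric bud markers were all higher in buds than in hand-dissected mesenchymes by limma at an adjusted p below 0.05, and the 8 stromal markers were all lower, so both labels matched their markers. Summed over the 9 bud markers, the signal was 170474 to 216771 in buds, 12072 to 46482 in null captures, 10255 to 61241 in wild-type captures and 3055 to 3276 in hand-dissected mesenchymes. Every capture had a higher bud marker sum than every hand-dissected mesenchyme. Taken singly, all 9 markers were wholly higher in wild-type captures than in hand-dissected mesenchymes, but not in null captures. Calb1 was 79.4 in null capture 1, against 123.7 to 171.7 in hand-dissected mesenchymes. Wnt9b was 40.9 in null capture 2, against 154.9 to 189.2. Hoxa11 had signals of 196.6, 91.8, 136.7, 95.7 and 98.8 in null captures 1 to 5, against 814.3, 656.4, 839.6 and 525.5 in wild-type captures 1 to 4, and Hoxd11 averaged 341 ± 121 (SD, n = 5) in null captures and 435 ± 115 (SD, n = 4) in wild-type captures. Whether either probe set lies in the deleted part is not known, so neither checks the genotype by itself.

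Of the factors, 5 were called lower in buds than in hand-dissected mesenchymes and 1 higher, and the remaining ones were not called or were too dim to test. Differences below are log2 differences of signal plus an offset of 36.3, the 25th percentile of all values, which understates the change of dim genes. A gene was called at a Benjamini-Hochberg adjusted p below 0.05 in limma over all probe sets that passed a brightness filter, meaning a signal above the array's median in a number of arrays no smaller than the smaller group's size. Between buds and hand-dissected mesenchymes, 7 members passed the filter, of which 1 was higher and 5 were lower, against 13.9% higher and 14.6% lower (28.5% in all) among the 12435 genes tested. The buds and the hand-dissected mesenchymes did not overlap for 7 of the 8 measured members, 2 higher and 5 lower in buds, against 17.5% higher and 18.8% lower among the genes tested. The median difference of the 7 was -5.10, against 0.01 over all genes tested. Cited1 passed the filter through the buds alone, and Wt1 through the hand-dissected mesenchymes alone. Sall1 and Meox1 were above the array's median in 1 bud each and in all hand-dissected mesenchymes. For these, passing the filter was not separate from being high in 1 group. The ratio of 3' to 5' Gapdh signal, a sign of RNA quality, ran from 6.53 to 12.2 in buds and from 22.1 to 69.3 in hand-dissected mesenchymes, and that of Actb from 10.9 to 16.3 in buds and from 11.1 to 17.9 in hand-dissected mesenchymes; their part in these differences was not tested. In samples of this kind, fewer cells of a type and less RNA per cell cannot be told apart.

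**Figure D1:**
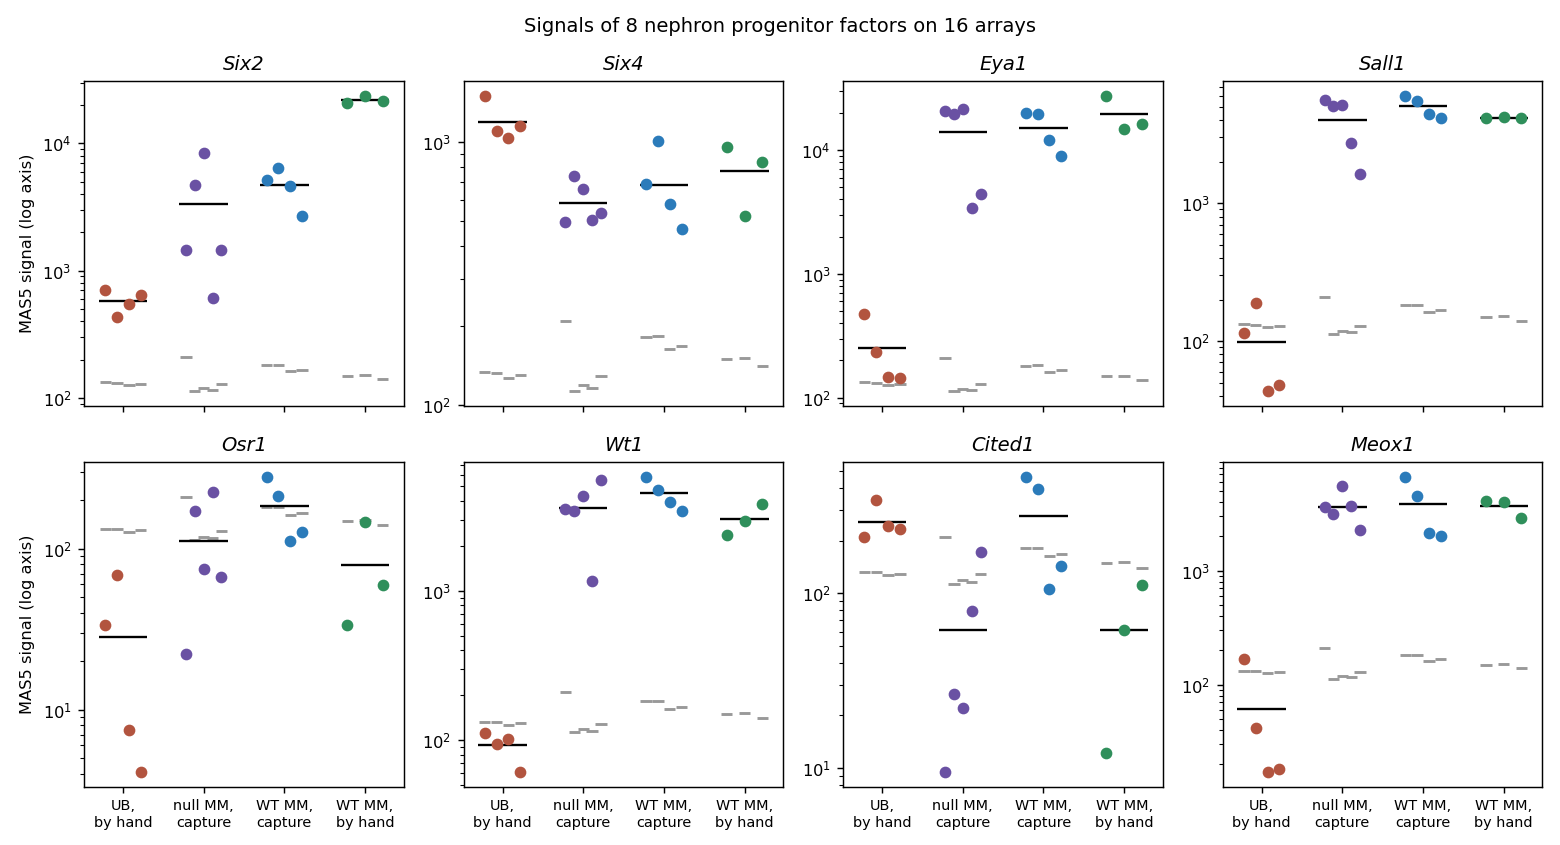
Signal of each of the 8 measured factors on a log axis, with 1 dot per array, in ureteric buds, null captures, wild-type captures and hand-dissected mesenchymes from left to right. Black lines are group means and grey dashes each array's median signal. Six2, Eya1, Sall1, Wt1 and Meox1 lie far lower in the 4 buds than in the 3 hand-dissected mesenchymes, Six4 lies higher in the buds, and Osr1 and Cited1 are dim throughout, with a highest signal of 465.3.

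Six2 was lower in buds, and it was also the 1 factor that was called between the ways of collecting wild-type mesenchyme. Its signal was 699.5, 435.2, 548.3 and 643.5 in buds 1 to 4. It was 1460.8, 4715.4, 8465.2, 609.9 and 1445.8 in null captures 1 to 5. It was 5183.5, 6372.4, 4617.6 and 2672.6 in wild-type captures 1 to 4, and 20603.2, 23654.6 and 21668.0 in hand-dissected mesenchymes 5 to 7. Every hand-dissected mesenchyme was above every capture, both capture groups overlapped, and null capture 4 was as low as the buds. Six2 fell in buds against hand-dissected mesenchymes (log2 difference -5.17 ± 0.22, SE; 36.1-fold; limma adjusted p = 2.44e-08).

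The stretch of DNA around the Six2 start is printed because Six2 is the member called between mesenchyme groups, and the windows of Sall1, Six4 and Cited1 because each held a motif searched for. Each window is 300 bases long, from 250 before to 50 after a start in RefSeq (GRCm38.p6, minus strand), and capitals mark the match to 1 of 4 motifs searched on both strands. The motifs were GCGTGGG (WT1 type), TCAGGTT (sine oculis homeobox type), CAGTAGC (OSR type) and TTTATGG (posterior HOX type), found in 5.04%, 4.07%, 3.7% and 2.75% of all 32851 RefSeq windows.
Six2, chr17:85688205-85688504: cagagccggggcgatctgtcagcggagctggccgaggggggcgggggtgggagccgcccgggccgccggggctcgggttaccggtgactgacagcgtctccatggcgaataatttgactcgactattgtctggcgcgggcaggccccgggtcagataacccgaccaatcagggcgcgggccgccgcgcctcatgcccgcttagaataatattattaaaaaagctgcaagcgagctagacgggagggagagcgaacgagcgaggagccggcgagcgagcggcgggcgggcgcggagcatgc
Sall1, chr8:89042813-89043112: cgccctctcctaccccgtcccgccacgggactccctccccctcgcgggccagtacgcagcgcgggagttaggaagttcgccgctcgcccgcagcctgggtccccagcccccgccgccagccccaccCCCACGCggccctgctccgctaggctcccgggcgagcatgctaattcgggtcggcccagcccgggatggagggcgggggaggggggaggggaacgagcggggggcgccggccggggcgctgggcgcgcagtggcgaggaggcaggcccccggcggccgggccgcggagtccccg
Six4, chr12:73113196-73113495: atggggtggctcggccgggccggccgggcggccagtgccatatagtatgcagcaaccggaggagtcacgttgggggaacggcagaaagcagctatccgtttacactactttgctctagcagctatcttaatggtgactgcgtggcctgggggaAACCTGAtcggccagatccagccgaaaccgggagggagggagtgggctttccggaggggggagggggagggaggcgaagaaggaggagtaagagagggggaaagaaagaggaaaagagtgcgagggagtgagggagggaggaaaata
Cited1, chrX:102252132-102252431: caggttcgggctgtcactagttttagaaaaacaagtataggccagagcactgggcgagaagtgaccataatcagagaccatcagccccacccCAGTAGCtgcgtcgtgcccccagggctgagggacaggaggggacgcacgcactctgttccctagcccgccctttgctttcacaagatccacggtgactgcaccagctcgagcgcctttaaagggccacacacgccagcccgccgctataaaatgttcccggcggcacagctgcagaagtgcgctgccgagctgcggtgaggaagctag
The Six2 window held none of the 4 motifs. The Sall1 window held the WT1-type motif, written CCCACGC on this strand, from position -124 relative to the start, the Six4 window the sine oculis homeobox motif, written AACCTGA, from -97, and the Cited1 window the OSR-type motif from -158. A match describes letters in a window and is not a binding site. The GC content was 67.3% for the Six2 window and 79.7% for the printed Sall1 window, against a median of 52.7% over all windows. The other Sall1 windows, at 57.3% and 70.0% GC, held no motif. Of the 9 named factors, 5 had windows (Six2, Six4, Sall1, Cited1 and Pax2), 12 in all, of which 3 held a motif. Eya1, Osr1, Wt1 and Meox1 were not matched.

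Six4, a relative of Six2 with the same kind of homeodomain, had its highest values in buds. Its signal was 1493.5, 1093.5, 1028.1 and 1147.1 in buds, 493.3, 740.5, 661.9, 502.3 and 534.9 in null captures, 693.1, 1002.4, 582.0 and 465.5 in wild-type captures, and 954.4, 522.4 and 837.5 in hand-dissected mesenchymes. On this probe set, 1425767_a_at, every bud was above every mesenchyme sample of all 3 kinds. On probe set 1439753_x_at bud 1 (925.2) was below hand-dissected mesenchyme 5 (934.7). The difference between buds and hand-dissected mesenchymes was nonetheless 0.63 ± 0.25 (SE; limma adjusted p = 0.0959) and was not called. Another Six4 probe set, 1456862_at, gave 0.71 (limma adjusted p = 0.0383) and was called. Not called were 1439753_x_at, at 0.67 (limma adjusted p = 0.0611), and 1427701_a_at, at 1.22 without the filter (limma adjusted p = 0.0950).

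Eya1 was far lower in buds than in any mesenchyme sample, though above the array's median in every bud. The signal was 478, 234, 147 and 144 in buds, 20832, 19584, 21699, 3405 and 4426 in null captures, 19875, 19473, 12081 and 8992 in wild-type captures, and 27494, 14853 and 16320 in hand-dissected mesenchymes. The buds lay below all mesenchyme samples, and among the null captures 3 were near or above the top of the wild-type captures and 2 were below all of them. Eya1 fell in buds (-6.18 ± 0.37, SE; 72.4-fold; limma adjusted p = 2.82e-07). This difference rests on probe set 1457424_at. The other Eya1 probe sets, 1443117_at and 1421727_at, were too dim to pass the filter in this comparison and gave, without it, 0.15 (limma adjusted p = 0.846) and -1.20 (limma adjusted p = 0.0731); 1443117_at was under the array's median in all buds and all hand-dissected mesenchymes.

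Sall1 was the most even member in hand-dissected mesenchyme. Its signal was 114.2, 187.4, 43.3 and 47.8 in buds, 5627.9, 5028.7, 5161.9, 2709.1 and 1620.7 in null captures, 6003.5, 5548.3, 4450.2 and 4112.7 in wild-type captures, and 4141.9, 4249.1 and 4135.5 in hand-dissected mesenchymes. All mesenchyme samples were above all buds, and the wild-type captures overlapped with the hand-dissected mesenchymes. Sall1 fell in buds (-5.10 ± 0.34, SE; 34.4-fold; limma adjusted p = 7.22e-07). The SD of its log2 values in hand-dissected mesenchymes was 0.022, lower than in all but 0.6% of 13503 genes.

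Wt1, which is also known from the gonad and the coelomic epithelium, had signals of 112.3, 94.3, 102.4 and 61.3 in buds, 3531.7, 3445.3, 4321.0, 1156.4 and 5554.8 in null captures, 5830.2, 4763.8, 3929.6 and 3428.2 in wild-type captures, and 2374.2, 2958.1 and 3813.9 in hand-dissected mesenchymes. The buds were below every mesenchyme sample, and the 3 mesenchyme groups overlapped. Wt1 fell in buds (-4.57 ± 0.25, SE; 23.8-fold; limma adjusted p = 1.57e-07).

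Meox1 had signals of 168.8, 41.2, 17.1 and 18.3 in buds, 3618.9, 3131.4, 5579.3, 3689.6 and 2271.2 in null captures, 6713.1, 4521.9, 2153.0 and 2000.6 in wild-type captures, and 4124.0, 4022.7 and 2889.3 in hand-dissected mesenchymes. The mesenchyme groups overlapped with each other and none overlapped with the buds. Meox1 fell in buds (-5.47 ± 0.42, SE; 44.5-fold; limma adjusted p = 2.13e-06). In buds it was close to the floor, with the first bud sample above the other 3.

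Osr1 and Cited1 were dim. Osr1 had 33.6, 68.2, 7.5 and 4.1 in buds, 22.3, 170.8, 74.7, 223.2 and 66.9 in null captures, 280.2, 212.2, 110.9 and 126.8 in wild-type captures, and 33.6, 145.5 and 59.0 in hand-dissected mesenchymes. It did not pass the brightness filter between buds and hand-dissected mesenchymes, and without that filter the difference was -0.83 ± 0.41 (SE; limma adjusted p = 0.251).

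Cited1 had 209.8, 340.3, 240.9 and 233.2 in buds, 9.5, 26.4, 22.2, 78.7 and 171.5 in null captures, 465.3, 396.0, 105.3 and 143.6 in wild-type captures, and 12.2, 62.0 and 111.2 in hand-dissected mesenchymes. The buds were above all hand-dissected mesenchymes, whose signals were all under their array's median, and the wild-type captures spanned the bud values. Cited1 thus passed the filter through the buds alone. Cited1 rose in buds (1.70 ± 0.38, SE; 3.24-fold; limma adjusted p = 0.00629). With the wild-type captures added to the hand-dissected mesenchymes as the comparison group, the difference was 0.77 (limma adjusted p = 0.374) and was no longer called.

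**Figure D2:**
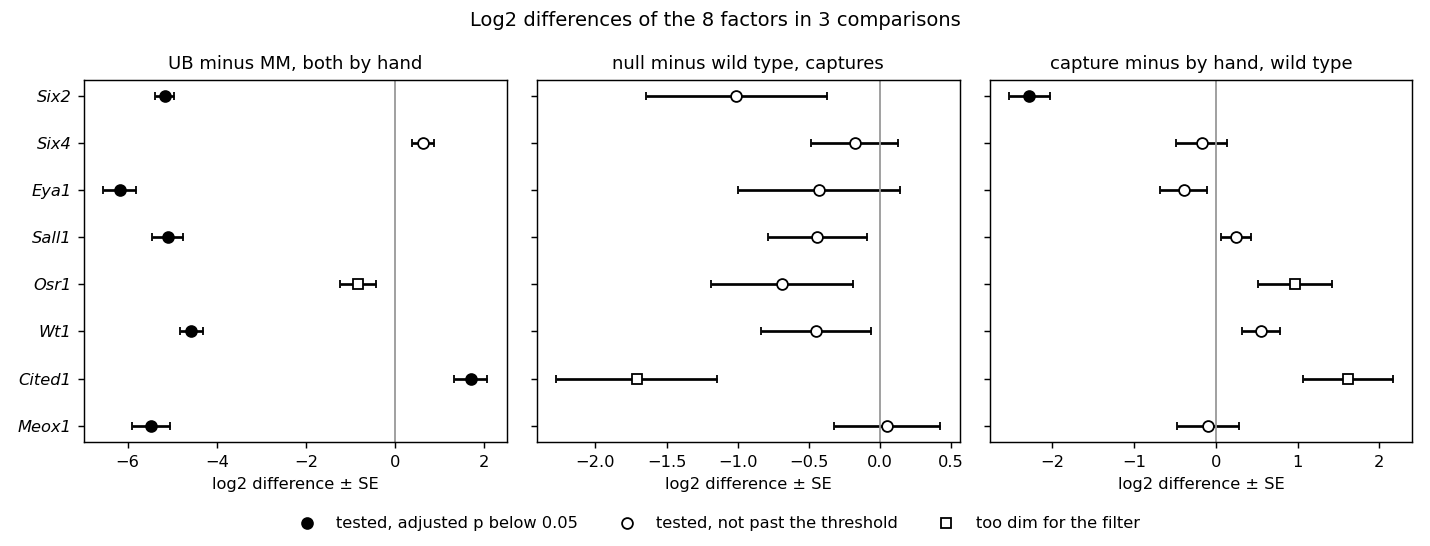
Log2 difference with its standard error for each measured factor in 3 comparisons, buds against hand-dissected mesenchymes, null captures against wild-type captures, and wild-type captures against hand-dissected mesenchymes. Filled points passed an adjusted p below 0.05 in limma and squares did not pass the brightness filter. In buds 5 factors lie between -6.18 and -4.57, no factor is filled for the null captures, and Six2 is the filled point for the wild-type captures.

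Loss of Hoxa11 and Hoxd11 was not accompanied by a called change in any of the factors tested. Of the 7 members that passed the filter, 0 were called in null captures against wild-type captures by limma. Among the 12161 genes tested, 1.74% were called (0.748% higher and 0.995% lower). An unadjusted p below 0.05 in limma was reached by 0 of the 7 members and by 2319 of the 12161 genes. For all 8 members the null and wild-type captures overlapped, where 3.26% of the genes tested lay wholly higher and 5.77% wholly lower in null captures. The median difference of the 7 members was -0.44, against -0.10 over all genes tested. The ratio of 3' to 5' signal averaged 22.5 for Gapdh and 20.8 for Actb in null captures, against 19.8 and 17.1 in wild-type captures. Its part in these differences was not tested. Six2 averaged 3339 ± 3268 (SD, n = 5) in null captures and 4712 ± 1544 (SD, n = 4) in wild-type captures, a difference of -1.01 ± 0.63 (SE; 95% interval -2.40 to 0.38; limma adjusted p = 0.421).

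The other intervals also spanned 0. For Eya1 the difference was -0.43 (interval -1.68 to 0.81), for Sall1 -0.44 (-1.20 to 0.32) and for Wt1 -0.45 (-1.30 to 0.40). The Eya1 probe set 1443117_at, which passed the filter here, gave -1.26 (limma adjusted p = 0.396). Osr1 gave -0.69 (-1.79 to 0.41), Six4 -0.18 (-0.84 to 0.49) and Meox1 0.05 (-0.77 to 0.87). These intervals leave room for falls of more than 1 log2 unit in Six2, Eya1, Sall1, Osr1 and Wt1. Cited1 did not pass the filter; it averaged 61.7 ± 66.9 (SD, n = 5) in null captures and 278 ± 180 (SD, n = 4) in wild-type captures, a difference of -1.71 ± 0.56 without the filter (SE; limma adjusted p = 0.203).

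The median gene varied more among null captures than among wild-type captures, and Six2 and Eya1 were among the most variable genes in null captures. The SD of the log2 values over the null captures was 1.48 for Six2 and 1.32 for Eya1, above 95.3% and 92.9% of 13503 genes. The median gene had 0.516 in null captures and 0.296 in wild-type captures. The SD was lower in null than in wild-type captures for Six4 (0.246 against 0.444), Meox1 (0.463 against 0.838) and Cited1 (0.884 against 0.907). Null capture 4 was below all wild-type captures in 5 of the 8 members (Six2, Eya1, Sall1, Wt1 and Cited1), and null capture 5 in 4 (Six2, Eya1, Sall1 and Osr1). Over all genes the share below every wild-type capture was 32.4% in null capture 4 and 35.2% in null capture 5. Null capture 1 was below all wild-type captures in Six2, Osr1 and Cited1 and above them in Eya1, and null capture 2 was below them in Cited1. Null capture 3 was above all wild-type captures in Six2 and Eya1 and below them in Osr1 and Cited1, where 26.0% of all genes lay above and 35.4% below.

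Markers of muscle, gonad and neural tissue were high in some null captures, not always the same ones. The summed signal of 5 somite and muscle markers was 3843, 2739, 912, 18854.5 and 1167 in null captures 1 to 5, against 726.8 to 1347 in wild-type captures, and in null capture 4 Myog, a muscle differentiation factor, reached 11899.6 and Myod1 3609.0. The summed signal of 5 gonad and coelomic markers was 391.5, 178.7, 386.0, 446.2 and 16464.6 in null captures 1 to 5, against 151.9 to 374.6 in wild-type captures. In null capture 5 this came with Nr5a1 at 3089.2, Lhx9 at 4801.9 and Upk3b at 8010.4, and Wt1 was highest there among the null captures. The 4 neural markers summed to 15649, 5001, 2399, 22226 and 2280 in null captures, against 2014 to 4576 in wild-type captures. The stromal markers summed to 162513 in null capture 1, above the 104042 to 144332 of the wild-type captures, and to 101430 to 131044 in the other null captures. The macrophage, endothelium and red cell lists were not above the wild-type range in any null capture. The macrophage markers summed to 667 to 11072 in null captures and 6595 to 13473 in wild-type captures. The sums were 2684 to 6229 and 2467 to 14187.5 for endothelium, and 25661 to 69030 and 20556 to 82734.5 for red cells. The part of these tissues in the members' levels was not tested.

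With null captures 4 and 5 both left out, a choice made after the values were seen, the difference was -0.21 for Six2 (limma adjusted p = 0.863), 0.53 for Eya1 (limma adjusted p = 0.306), 0.08 for Sall1 (limma adjusted p = 0.844), -0.23 for Wt1, 0.23 for Meox1, -0.92 for Osr1 (limma adjusted p = 0.385) and -0.078 for Six4. Eya1 and Sall1 thus turned sign, Osr1 lay farther below 0 than with all null captures, and none was called. Leaving out null capture 4 alone gave -0.56 for Six2, and leaving out null capture 3 alone gave -1.49 (limma adjusted p = 0.200).

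**Figure D3:**
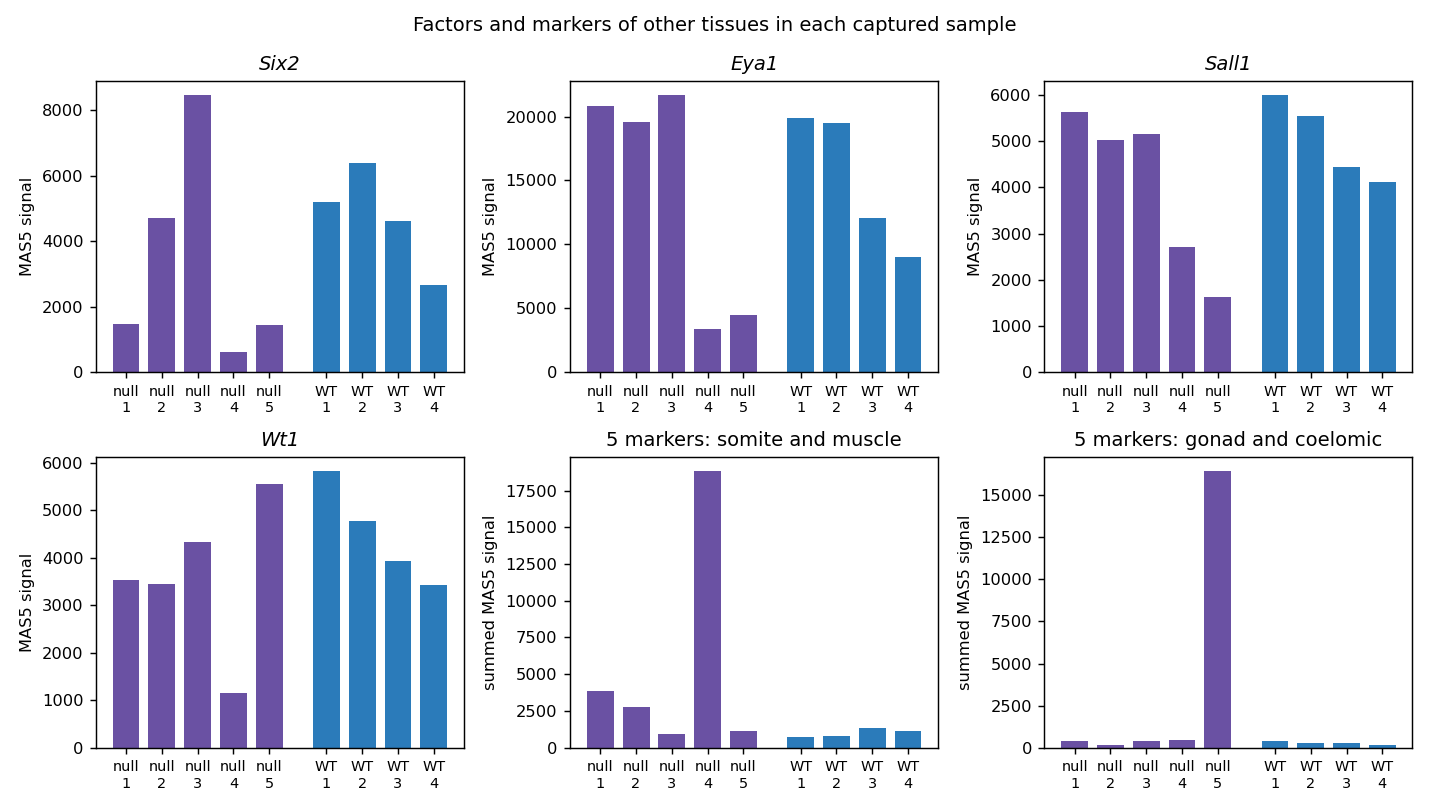
Signal in each null capture and each wild-type capture for Six2, Eya1, Sall1 and Wt1 and for the summed somite and muscle markers and gonad and coelomic markers, as bars from 0. Null capture 4 has the lowest Six2, Eya1 and Wt1 of the captures and the highest muscle sum, 18854.5, and null capture 5 has the lowest Sall1 and the highest gonad and coelomic sum, 16464.6.

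Wild-type mesenchyme collected by laser and by hand differed by a called amount in Six2 and in no other member. Of the 6 members that passed the filter, 0 were higher and 1 was lower in wild-type captures than in hand-dissected mesenchymes, where 13.6% of the 12172 genes tested were higher and 9.88% lower (23.5% in all). Six2 averaged 4712 ± 1544 (SD, n = 4) in wild-type captures and 21975 ± 1549 (SD, n = 3) in hand-dissected mesenchymes and fell in the captures (-2.28 ± 0.25, SE; 4.85-fold; limma adjusted p = 0.000345; 95% interval -2.82 to -1.73). The groups did not overlap for Six2, as for 19.5% of the genes tested that were wholly higher and 14.7% wholly lower in the captures, and the alternatives tried gave -2.48 to -2.03 with a highest adjusted p of 0.0202.

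The other members were not called. Eya1 differed by -0.39 ± 0.29 (SE; limma adjusted p = 0.343), Sall1 by 0.25 ± 0.19, Wt1 by 0.55 ± 0.23, Six4 by -0.17 ± 0.31 and Meox1 by -0.10 ± 0.38, with limma adjusted p-values from 0.108 to 0.871. The second Eya1 probe set, 1443117_at, was called higher in the captures, at 481 ± 329 (SD, n = 4) against 41.9 ± 44.4 (SD, n = 3) in hand-dissected mesenchymes (2.65; limma adjusted p = 0.00541). It passed the filter through the captures alone, as all hand-dissected mesenchymes were under their array's median. Beside these results stand the bud marker sums given above and the ratio of 3' to 5' Gapdh signal, which averaged 19.8 in wild-type captures and 42.5 in hand-dissected mesenchymes; the ratio for Actb averaged 17.1 in wild-type captures and 13.8 in hand-dissected mesenchymes. Their part in the Six2 difference was not tested. The comparison shares the wild-type captures with that of the null captures, and the hand-dissected mesenchymes with that of the buds, so the 3 sets of differences are not independent.

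Relatives of the members from the same gene families split in the bud comparison. Of 10 family paralogs tested between buds and hand-dissected mesenchymes, 3 were lower (Eya4 -5.89, Meox2 -4.61, Sall2 -1.65) and 3 higher (Cited4 1.45, Pax3 1.19, Pax8 1.06), with a median of -0.41. Among all genes tested, 14.6% were lower and 13.9% higher. All 3 higher calls were lost with all 16 arrays in 1 fit, that of Pax3 also without hand-dissected mesenchyme 7 (highest limma adjusted p 0.321) and that of Cited4 also with the wild-type captures added, while the 3 lower ones were called in all alternatives run. Eya4 averaged 216 ± 77.4 (SD, n = 4) in buds and 14439 ± 1929 (SD, n = 3) in hand-dissected mesenchymes. Of 11 tested between null and wild-type captures 0 were called, against 1.74% of all genes tested. An unadjusted p below 0.05 in limma was reached by 3 of them, against 2319 of the 12161 genes tested. In wild-type captures against hand-dissected mesenchymes 2 of 10 were lower, against 9.88% of all genes tested. They were Eya3 (-1.24) and Eya4 (-1.01), both coactivators of the same family as Eya1. The Eya4 call was lost with all 16 arrays in 1 fit (limma adjusted p = 0.0951).

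Other regulators of the mesenchyme were mostly lower in buds. Of 7 tested, 5 were lower (Foxc2 -7.09, Foxc1 -5.86, Tcf21 -3.88, Hoxd11 -2.97, Hoxa11 -2.24) and Mycn was higher (0.83). Among all genes tested, 14.6% were lower and 13.9% higher. Foxc1 and Foxc2 are forkhead factors that pattern the kidney mesenchyme, and Tcf21 is a basic helix-loop-helix factor of mesenchyme and podocytes. Between null and wild-type captures 1 of the 7 was called, against 1.74% of all genes tested. It was Hoxa11 (-2.23 ± 0.34, SE; limma adjusted p = 0.0114). This call was lost when wild-type capture 1, 2 or 3 was left out and with the replicate number as a block (highest limma adjusted p over the alternatives 0.0836). In wild-type captures against hand-dissected mesenchymes Tcf21 was higher (0.99) and Foxc2 (-0.81) and Dach1 (-1.42) were lower. Of all genes tested there, 13.6% were higher and 9.88% lower. The Tcf21 call was lost without hand-dissected mesenchyme 7, and those of Tcf21 and Foxc2 were lost with all 16 arrays in 1 fit. Dach1 was called in 8 of 17 alternatives. It was not called without hand-dissected mesenchyme 5 or 7 or wild-type capture 1, 2 or 4 (highest limma adjusted p 0.175).

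Signals and surface proteins of the progenitors were mostly lower in buds, at 7 lower and 3 higher of 12 tested. Among all genes tested, 14.6% were lower and 13.9% higher. Bmper, a BMP-binding secreted protein, differed by -6.59, Gdnf, the ligand that drives bud branching, by -6.13, Cdh11 by -5.67 and Itga8, an integrin required for Gdnf expression, by -5.43. Those higher in buds were Gfra1 (2.12), the GDNF coreceptor, Fgf9 (1.57) and Bmp7 (1.03), the last 2 not called with all 16 arrays in 1 fit. In null against wild-type captures 1 of 13 was higher, against 0.748% of all genes tested. It was Ncam1, a cell adhesion molecule (0.84 ± 0.17, SE; limma adjusted p = 0.0399). Ncam1 was called in 11 of 22 alternatives, and its call was lost without null capture 2 or 3 or any single wild-type capture. In wild-type captures against hand-dissected mesenchymes 3 of 12 were higher, among them Robo2 (1.97) and Fgfr1 (1.29), and 2 were lower, among them Ncam1 (-0.70). Of all genes tested there, 13.6% were higher and 9.88% lower. The calls of Robo2 and Ncam1 were lost with all 16 arrays in 1 fit (limma adjusted p = 0.124 and 0.106).

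Genes of the commitment to nephron formation were split in buds, with 5 higher and 5 lower of 12 tested, against 13.9% and 14.6% of all genes tested. Among those higher were Pou3f3 (6.64) and Lhx1 (6.40), homeobox regulators, and Jag1 (2.18), a Notch ligand. Among those lower were Cdh6 (-4.21) and Wnt4 (-2.95), the signal that starts epithelial conversion. In null against wild-type captures 2 of 12 were higher, against 0.748% of all genes tested. Dll1, a Notch ligand, averaged 5695 ± 1241 (SD, n = 5) in null captures and 1152 ± 399 (SD, n = 4) in wild-type captures (2.32 ± 0.28, SE; limma adjusted p = 0.00407), and it was called in all 22 alternatives. Hey1, a Notch target, was higher by 1.03 ± 0.22 (SE; limma adjusted p = 0.0436), called in 9 of 22 alternatives and not without null capture 2, 3, 4 or 5 or any single wild-type capture. Wnt4 averaged 8917 ± 3611 (SD, n = 5) in null captures and 2850 ± 1368 (SD, n = 4) in wild-type captures and was not called (1.62 ± 0.45, SE; limma adjusted p = 0.0923). In wild-type captures against hand-dissected mesenchymes 4 of 12 were higher, against 13.6% of all genes tested. They were Pou3f3 (3.22), Lhx1 (2.51), Wnt4 (1.14) and Bmp2 (1.13), beside the higher bud marker sums of the captures. Wnt4 was called in 6 of 18 alternatives and not without any 1 of the hand-dissected mesenchymes or wild-type capture 1, 2 or 4 (highest limma adjusted p 0.269), and Bmp2 in 7 of 18 and not without any 1 of the hand-dissected mesenchymes or wild-type capture 2 or 4 (highest limma adjusted p 0.132).

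Subunits of the NuRD complex, the partner of Sall1, were mostly not called. Of 13 tested, 1 was higher in buds, against 13.9% of all genes tested: the helicase Chd4 (1.56). This call was lost without bud 2 or hand-dissected mesenchyme 5 and with the wild-type captures added to the hand-dissected mesenchymes. Over the alternatives the lowest Chd4 difference was 0.40 and the highest limma adjusted p 0.706. In null captures 0 were called, against 1.74% of all genes tested, and 2 had an unadjusted p below 0.05 in limma, against 2319 of the 12161 genes tested. In wild-type captures 2 of 13 were higher than in hand-dissected mesenchymes, Chd4 (2.03) and Mbd3 (1.57), a share near the 13.6% of all genes tested. Mbd3 was not called without hand-dissected mesenchyme 7 or wild-type capture 2 or 4.

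**Figure D4:**
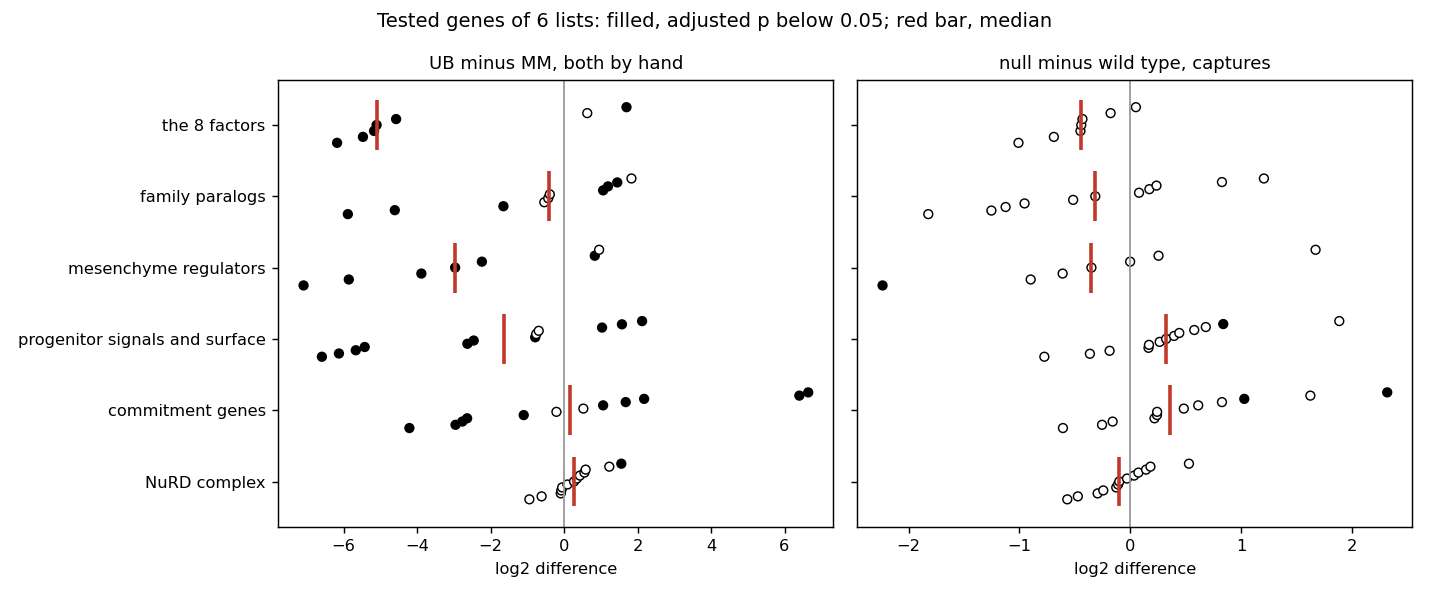
Log2 differences of the tested genes of 6 lists, with 1 dot per gene and a red bar at the median, in buds against hand-dissected mesenchymes and in null captures against wild-type captures. The medians of the measured members are -5.10 in buds and -0.44 in null captures, where no member was called.

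The profile of a gene over the 16 arrays was compared with that of every other gene by the root mean square of the log2 differences after each profile was centred. Eya1 was nearest to Hoxd10 (0.490) and Bmper (0.502), with Sall1 seventh (0.610), where the median gene stood at 2.65. Meox1 was nearest to Hoxa9 (0.463) and Meis2 (0.538), with Sall1 next (0.574), and Sall1 was nearest to Uncx (0.379) and Vcan (0.453). Wt1 was nearest to Pgf (0.494) and Maf (0.494).

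The nearest profile to that of Six2 stood farther off than the nearest profile to any other member. Its nearest genes were 9030612E09Rik (0.860) and Cd55 (0.872), and the nearest other member, Eya1, ranked 482 of 13502 genes (1.56), where the median gene stood at 1.96. Six4 was nearest to Ddx21 (0.263) and Cltc (0.294; median gene 0.720). Osr1 was nearest to Micall2 (0.492) and Ehbp1l1 (0.542; median gene 1.02), and Cited1 to Gm38910 (0.615) and Dact2 (0.628; median gene 1.19). The distances were not scaled to a gene's own range. These distances describe 16 arrays that share groups and were tested no further.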

How the data were processed

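RNA of 16 samples, amplified in 2 rounds, was hybridised to 1-colour Affymetrix arrays. Per the submitters' processing notes, the authors made the deposited signal intensity of each probe set with MAS5; the deposited values have a trimmed mean (2% from each tail) that is the same on every array. No detection calls, scan dates or slides were used here. Probe sets were named from the platform annotation: of 45037 that are not controls, 34945 had 1 symbol, 932 several and 9160 none. A gene was represented by its probe set of highest mean log2 signal over all arrays.

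Differences were computed with limma 3.58.1 under R 4.3.3, by lmFit followed by eBayes with its prior variance following mean signal, on log2(signal + 36.3), within the 2 groups compared, with Benjamini-Hochberg adjustment over the probe sets that passed the filter. The fit was tested on simulated data. Tables and figures used Python 3.11.15, pandas 2.3.3, numpy 2.4.6 and matplotlib 3.10.9. The number of arrays limits the precision. The members and the gene lists were chosen with earlier results of these data known. The genes named were all measured members, up to 4 called genes of each list and comparison by size of difference, and the 2 nearest profiles of each member among genes above the array median in at least 3 arrays; other list and marker genes were chosen after their values were seen. No array pair was identical. Same-numbered null and wild-type captures did not deviate together. Alternatives covered the offset, filter, normalization, array weights, trend, a joint fit, other probe sets, a replicate block and each array left out.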

Additional observations from a re-analysis of the deposited data

Results flagged for a closer look

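In 48 groups of 4 or 5 samples, each being a member's signal or a marker sum in 1 group, 5 had a sample standing apart from the others, where chance flags about 1 group in 20. Meox1 was 168.8 in bud 1, above the other 3 buds. The 8 stromal markers summed to 5076.7 in the same bud, above its fellow buds. The macrophage markers summed to 973.5 in bud 2, above the other buds. The somite and muscle markers summed to 18854.5 in null capture 4, and the gonad and coelomic markers to 16464.6 in null capture 5, each far above the other null captures. The part of these samples in the members' levels was not tested beyond the differences given without null captures 4 and 5.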

How the results depend on the processing

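Counts here are probe sets called at an adjusted p below 0.05 by limma. In buds against hand-dissected mesenchymes 5701 were called, and 3752 with a filter requiring every array, 10132 with array weights, 3580 with all 16 arrays in 1 fit, and 3951 to 7845 with single arrays left out. In null against wild-type captures 411 were called, and 256 with no filter, 207 with median centring, 1654 with array weights, 215 with no intensity trend, 1793 with all 16 arrays in 1 fit, 53 with the replicate number as a block, and 496 without null captures 4 and 5. Leaving out single arrays gave 60 to 1866 there: 1866 without null capture 1, 172 without null capture 2 or 3, 248 without null capture 5, and 85, 60, 73 and 64 without wild-type captures 1 to 4. In wild-type captures against hand-dissected mesenchymes 5866 were called, 2811 with all 16 arrays in 1 fit, and 3391 to 6037 with single arrays left out, the lowest without hand-dissected mesenchyme 7. Median centring gave 4015 higher and 2204 lower probe sets in buds (2952 and 2749 as deposited), 136 and 71 in null captures (138 and 273), and 2435 and 3207 in wild-type captures (3857 and 2009); the median of all probe sets as deposited was 0.02, -0.15 and 0.11. Quantile normalization gave 158 and 244 in null captures and 2932 and 2574 in wild-type captures, and cyclic loess 164 and 196, and 3217 and 2508. The cause was not tested.

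Over the members, 127 of 129 alternatives kept direction and call in buds, 145 of 153 in null captures and 105 of 108 in wild-type captures. The exceptions in buds were Cited1, given above, and Six4, called with median centring (0.76; limma adjusted p = 0.0471). In null captures Six4 turned sign with cyclic loess (0.030), median centring (0.12) and without wild-type capture 2 (0.014; -0.34 to 0.014 over single arrays left out), Meox1 without null capture 3 (-0.12) and without wild-type capture 3 (-0.16) or 4 (-0.20; -0.20 to 0.38 over single arrays left out), and Eya1 (0.53) and Sall1 (0.083) without null captures 4 and 5. In wild-type captures Meox1 turned sign with array weights (0.03) and without wild-type capture 3 (0.11) or 4 (0.15; -0.43 to 0.15 over single arrays left out). Other probe sets turned the sign of Eya1 in buds (0.15) and in wild-type captures (2.65), of Six4 (0.40) and of Sall1 (-0.064) in wild-type captures. With the replicate number as a block, Six2 in null captures was -0.86 (limma adjusted p = 0.404), and same-numbered captures did not deviate together (correlations -0.005, 0.034, -0.047 and 0.074). The other comparisons share no replicate numbers, so no block was fitted there. Dim signals limit what can be said of Osr1 and Cited1.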
